A study of Mus musculus with 2 samples.

Results

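Peaks at microRNA genes are the regions of open chromatin, in the list deposited for embryonic mouse striatum, that overlapped a microRNA gene or the 500 bp to either side of it. MicroRNA genes were the RefSeq genes whose symbol starts with Mir and a digit or with Mirlet7, with host genes (symbols ending in hg) left out. Of 87174 peaks in all, 260 met this rule, and they lay at 274 of 1180 microRNA genes (23.2%, exact 95% binomial interval 20.8 to 25.7). The assay was single-nucleus ATAC-seq, in which a transposase tags accessible DNA of single nuclei, on striatum of wild-type embryos at E14.5 on a C57BL/6J and CD1 background. The 2 libraries form 1 group and share 1 peak list, which holds positions and no read counts. There is thus no depth and no replicate error for any value and no test between conditions, and intervals cover counting of genes only. The rule used position alone, so the kinds of microRNA that the peaks meet were free to vary. The lists of microRNAs compared below, the brain list included, were however chosen with earlier results of these data known. The widths were not wholly free, because a window meets a wide peak more readily.

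A microRNA is a short RNA of the RNA interference machinery that lowers the output of messenger RNAs. It is cut from a hairpin within a longer transcript, which can be a transcript of its own or the intron of a host gene. It finds its targets mainly through its seed, bases 2 to 8 from its 5′ end. Mir9 is a classical microRNA of neural progenitors, Mir124a one of neurons, and Mir137 is a brain microRNA linked to neuronal maturation. An ATAC peak at a hairpin reports open DNA there and does not measure the microRNA.

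The mature microRNAs below are those on which the results turn. Their genes had wide peaks, have copies that make the same RNA, are brain microRNA genes or share a seed with another one printed. Sequences are from RefSeq, build GRCm38.p6 (the assembly that mm10 names), with the seed in capitals. A mature sequence was found for 1013 of the 1180 genes and for 252 of the 274 with a peak. The Mir124a genes were not among them.
miR-9-5p: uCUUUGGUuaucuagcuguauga
miR-9-3p: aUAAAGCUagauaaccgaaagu
miR-137-3p: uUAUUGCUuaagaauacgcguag
miR-125b-5p: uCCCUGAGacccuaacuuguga
miR-125a-5p: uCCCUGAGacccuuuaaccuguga
miR-132-3p: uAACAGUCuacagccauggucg
miR-212-3p: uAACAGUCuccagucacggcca
miR-129-5p: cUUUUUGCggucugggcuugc
miR-219a-5p: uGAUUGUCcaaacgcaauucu
miR-7a-5p: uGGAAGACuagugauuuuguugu
miR-7b-5p: uGGAAGACuugugauuuuguuguu
miR-344-3p: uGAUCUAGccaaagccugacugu

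All 7 brain microRNA genes, Mir9-1, Mir9-2, Mir9-3, Mir124a-1, Mir124a-2, Mir124a-3 and Mir137, had a peak, against 267 of the 1173 other microRNA genes (22.8%). With 7 genes the exact 95% interval of the brain share ran from 59.0% to 100%. The hairpin itself lay wholly inside the peak at all 7 genes. Each had 1 peak within reach, and the 7 peaks were separate. These genes lay outside protein-coding genes, and the nearest end of one was 10.3 kb away (Ythdf1, at Mir124a-3) to 152.7 kb away (Cypt12, at Mir124a-2). None of their peaks came within 1000 bp of a protein-coding gene end.

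The Mir9 genes, whose 3 copies make the same miR-9-5p and miR-9-3p printed above, had peaks of very different width. At Mir9-3 (chromosome 7, 79505264 to 79505353) the peak ran from 79495547 to 79521778. Its 26231 bp made it the peak of width rank 2 among all 87174. At Mir9-2 (chromosome 13, 83738814 to 83738885) the peak ran from 83737181 to 83742594, a width of 5413 bp. At Mir9-1 (chromosome 3, 88215598 to 88215686) it was 4791 bp wide, from 88213176 to 88217967, and it also held Mir3093. The Mir9-3 peak was thus the widest of the 3 by far, while the peaks at Mir9-2 and Mir9-1 still ranked 462 and 699 by width.

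The Mir124a genes all lay near the middle of a wide peak. The Mir124a-1 hairpin (chromosome 14, 64590657 to 64590741) was 5 bp from the centre of a peak of 11490 bp, from 64584949 to 64596439. This peak ranked 32 by width and also held Mir3078. Mir124a-2 (chromosome 3, 17795662 to 17795770) lay 11 bp from the centre of a peak of 6264 bp, from 17792573 to 17798837. Mir124a-3 (chromosome 2, 180894040 to 180894107) lay 691.5 bp from the centre of a peak of 10874 bp, from 180887945 to 180898819, which ranked 42. The copies of Mir124a therefore spanned a narrower range of peak widths than those of Mir9.

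Mir137 (chromosome 3, 118433857 to 118433929) had the narrowest peak of the 7, of 1993 bp from 118433240 to 118435233, at rank 8145. Another peak of 2148 bp lay 1302 bp to its left in the reference direction. To its right the next peak was 126636 bp away. Within 50 kb on each side 4 peaks were present at Mir137 and at Mir124a-2, 6 at Mir9-2, 10 at Mir124a-3, 11 at Mir124a-1 and Mir9-3, and 16 at Mir9-1. The median was 10 at brain microRNA genes and 5 at the others, whose range of 0 to 32 covers that of the brain genes.

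**Figure D1:**
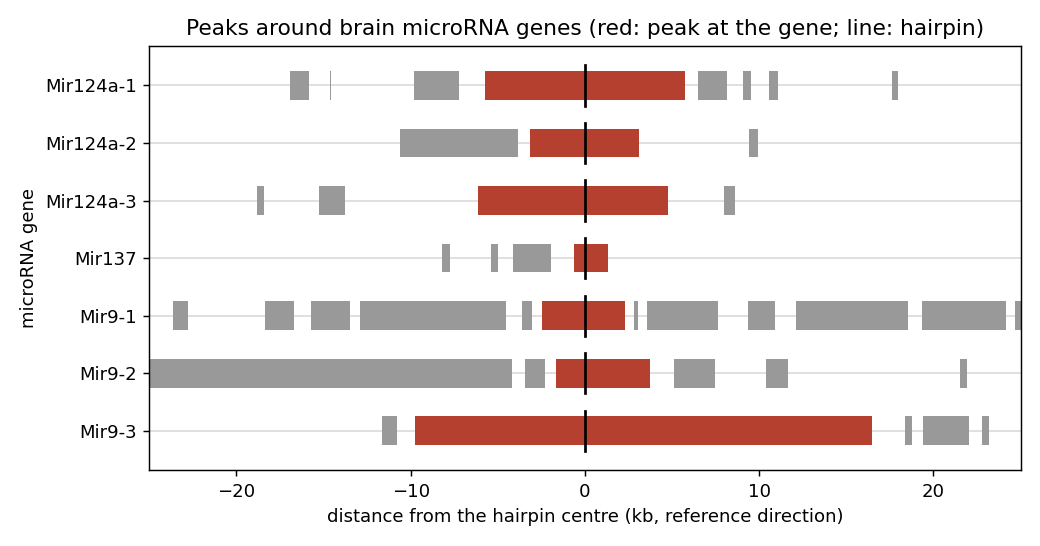
Peaks within 25 kb of the 7 brain microRNA hairpins. The horizontal axis is distance from the hairpin centre in kb, each row is a gene, red bars are the peak at the gene, grey bars are other peaks and the black line is the hairpin. The Mir9-3 peak spans 26231 bp and the Mir137 peak 1993 bp, and Mir9-1 has 12 peaks in the window against 3 at Mir124a-2.

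Wide peaks extended over the transcripts that carry these hairpins. Mir124a-1hg, the long non-coding host RNA gene of Mir124a-1 (5847 bp), lay wholly under the peak at the hairpin. C130071C03Rik, which spans Mir9-2 (19928 bp), had 93.1% of its span under 3 peaks. The widest of these, of 21797 bp (83712892 to 83734689), lay over its annotated starts and was separate from the peak at the hairpin. Mir9-3hg (34378 bp) had 82.8% of its span under 5 peaks, Mir124-2hg (10151 bp) 80.8% under 2 peaks, and Gm3764, which spans Mir9-1 (23287 bp), 77.0% under 7 peaks.

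An annotated start of Mir9-3hg and one of Gm3764 lay inside the same peak as the hairpin. The span of Gm3764, on the plus strand, begins further upstream at 88206673, under a separate and wider peak of 8391 bp (88202738 to 88211129), so the start shown for it is an internal one. RefSeq promoter windows of the starts under the hairpin peaks (250 bases before to 50 after the annotated start, plus strand, GRCm38.p6) are shown, with CpG dinucleotides in capitals. The Mir9-3hg window is chr7:79499776-79500075 and the Gm3764 window is chr3:88214232-88214531.
Mir9-3hg: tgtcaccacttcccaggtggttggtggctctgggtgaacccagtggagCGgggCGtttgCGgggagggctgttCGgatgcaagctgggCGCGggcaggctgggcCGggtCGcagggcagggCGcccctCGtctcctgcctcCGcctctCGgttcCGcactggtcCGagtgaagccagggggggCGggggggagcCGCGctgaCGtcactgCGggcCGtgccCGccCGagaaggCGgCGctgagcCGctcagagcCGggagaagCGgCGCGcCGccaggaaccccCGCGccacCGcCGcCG
Gm3764: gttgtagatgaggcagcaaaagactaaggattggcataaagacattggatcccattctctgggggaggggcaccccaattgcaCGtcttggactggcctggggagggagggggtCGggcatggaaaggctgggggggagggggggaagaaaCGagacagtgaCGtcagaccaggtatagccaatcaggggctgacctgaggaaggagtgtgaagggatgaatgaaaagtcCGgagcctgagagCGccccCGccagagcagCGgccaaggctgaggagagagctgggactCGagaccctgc
The Mir9-3hg window had a GC content of 75% and 35 CpG dinucleotides, and the Gm3764 window 59.7% and 9. Another annotated start of Mir9-3hg (chr7:79515185-79515484), also under the 26231 bp peak, had 70.7% and 28. The median window of all 32851 RefSeq promoters held 7, and the median of the 16897 windows that met a peak held 20. Both Mir9-3hg windows thus held more CpG dinucleotides than the median window at a peak, and the Gm3764 window fewer. The motif CANNTG, the E-box read by basic helix-loop-helix factors, was present in both printed windows and absent from the other Mir9-3hg window. It was in 72.3% of all windows and in 63.9% of those that met a peak. TAATTA, a core read by Dlx-type homeodomains, was in none of these windows, against 5.29% of all windows and 2.91% of those that met a peak. TGACAG, read by Meis-type homeodomains, was in none of them either, against 19.2% of all windows and 16.4% of those that met a peak. Both strands were searched, a CANNTG match can share its last bases with a TGACAG match, and a match is a description of letters only.

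The share of microRNA genes with a peak, 23.2%, lay between those of other classes of short genes and above that of chromosome positions at large. Transfer RNA genes, of median length 72 bp, had a peak within 500 bp in 246 of 403 (61.0%), more often than microRNA genes. Small nucleolar RNA genes, which guide RNA modification, had one in 112 of 1330 (8.42%), and small nuclear RNA genes, of the splicing machinery, in 82 of 997 (8.22%). A window of 1081 bp, the median microRNA gene of 81 bp with its flanks, meets a peak at 6.38% of all chromosome positions. Longer genes offer more bases to meet a peak, and 73.7% of protein-coding genes and 49.5% of all RefSeq genes had one. These shares are descriptions of 1 peak list and were not tested.

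The share differed with position relative to protein-coding genes. Of the microRNA genes within 1000 bp of a protein-coding gene end, 85 had a peak (58.6% of them, interval 50.2 to 66.7), where 35.6% of positions of that kind meet one. Of 685 inside a protein-coding gene and away from its ends 113 did (16.5%, interval 13.8 to 19.5), against 7.96% of such positions. Of 350 outside protein-coding genes 76 did (21.7%, interval 17.5 to 26.4), against 3.91% of such positions. The share at microRNA genes was thus above that of positions in each of the 3 classes, and by the highest ratio outside protein-coding genes, where all 7 brain genes lay.

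**Figure D2:**
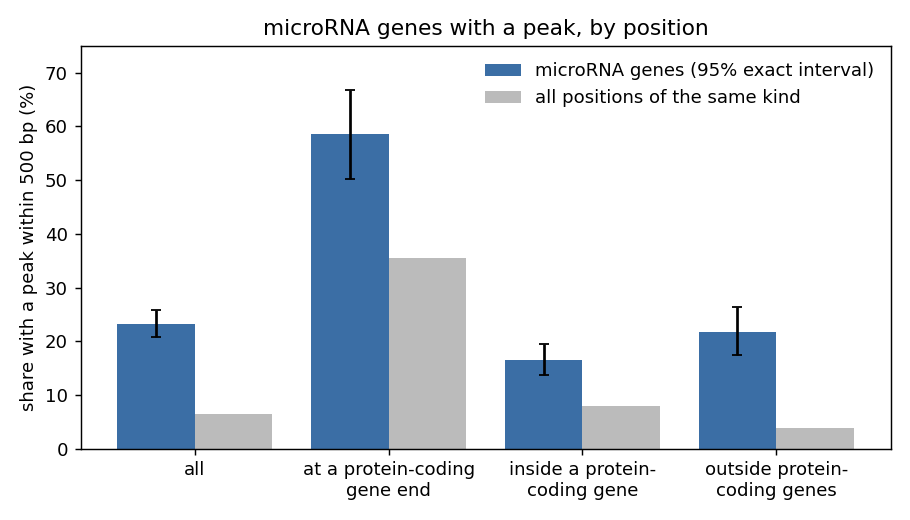
Share of microRNA genes with a peak within 500 bp, in percent (blue, with exact 95% binomial intervals), beside the share of chromosome positions of the same kind whose window of 1081 bp meets a peak (grey). The blue bar exceeds the grey bar in every class, with 21.7% against 3.91% outside protein-coding genes.

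Peaks at microRNA genes were wide. The median over the 260 was 1619.5 bp, with quartiles of 742 and 2770 bp, against 565 bp for all peaks. A wide peak is met more readily by any window, and windows placed at every position would meet peaks with a median width of 852 bp. Of the 260 peaks 30 (11.5%) were among the 872 broadest of all (1% of the list), which make up 3.82% of the total reach of peaks for such a window. Width also differed with gene ends: 117 of the 260 peaks (45%) reached within 1000 bp of a protein-coding gene end and had a median of 2304 bp, and the rest had one of 981 bp.

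The 7 peaks at brain microRNA genes had a median of 6264 bp (range 1993 to 26231 bp), and 6 of them were in the broadest 1%. The 253 peaks at other microRNA genes had a median of 1538 bp (range 2 to 11144 bp), and 24 were in the broadest 1%. Away from protein-coding gene ends, where all brain peaks lay, the 136 other peaks had a median of 898.5 bp, and 8 were in the broadest 1%. The ranges overlapped, and the Mir9-3 and Mir124a-1 peaks were the 2 that exceeded every peak at another microRNA gene.

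**Figure D3:**
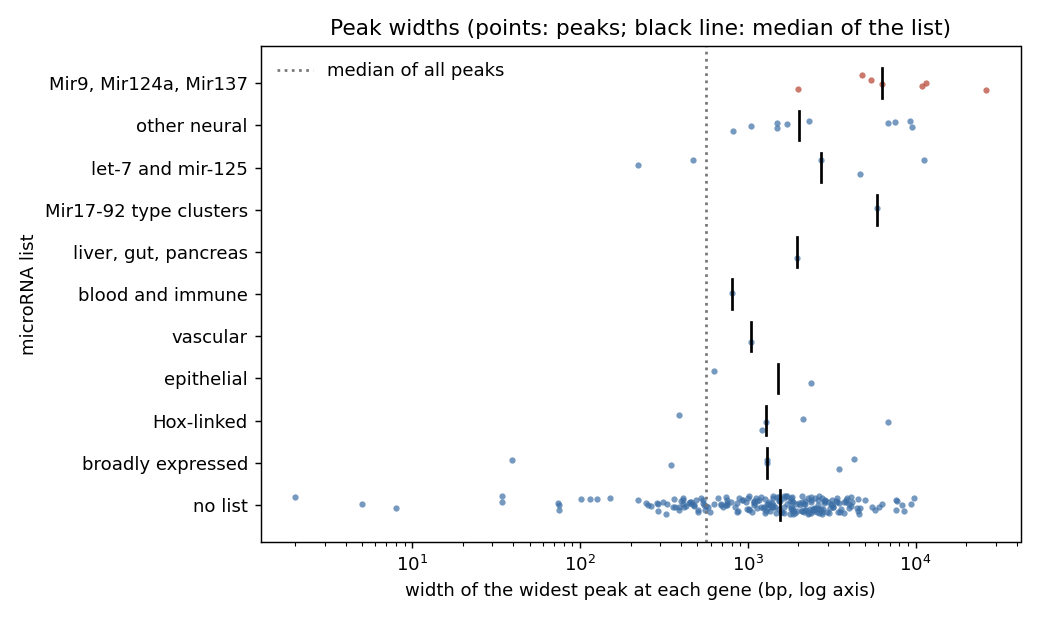
Width of the widest peak at each microRNA gene, in bp on a log axis, by list. Points are peaks, black lines are list medians and the dotted line is the median of all peaks (565 bp). The 7 brain peaks lie between 1993 and 26231 bp, to the right of that line, and peaks shared with a brain gene are shown once, in the brain row.

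In the list of other microRNAs known from neurons or glia, 14 of 25 genes had a peak (56%, interval 34.9 to 75.6). Membership went by the number in the symbol, so the 25 also hold Mir7j and Mir7k, both without a peak. The mature RNA of Mir7k carries the let-7 seed GAGGUAG, so the list is not purely neural and its share is approximate. These 14 genes met 10 separate peaks of 819 to 9565 bp (median 2021.5 bp), because some hairpins are neighbours or overlap each other. Mir132 and Mir212, activity-regulated microRNAs of neurons that share the seed AACAGUC, lay under a single peak of 9565 bp (chromosome 11, 75164684 to 75174249). This peak also reached the end of the protein-coding gene Hic1. Mir219a-1, of a family known from oligodendrocyte differentiation, lay with Mir219c under 9299 bp (chromosome 17, 34023925 to 34033224), a peak that reached the end of H2-Ke6. The protein-coding gene end nearest to the Mir219a-1 hairpin was that of Ring1, 303 bp away.

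Further members of this list, chosen after their values were seen, showed both states. Mir129-2 and the overlapping Mir129b lay under 7566 bp and Mir7-2 under 6878 bp, both away from protein-coding gene ends. Mir129-1, the other source of miR-129-5p, met a peak of 1487 bp only through its flank, 486 bp from the hairpin. Mir128-2, inside the striatal gene Arpp21, had its hairpin within a peak of 1718 bp, whereas Mir128-1 in R3hdm1 had no peak. The genes without a peak were 11, among them Mir135a-1 and Mir135a-2. Mir218-1 and Mir218-2, known from motor neurons and placed in Slit2 and Slit3, were also without one.

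The let-7 family and its cluster mates, known for the timing of differentiation, had a peak at 7 of 18 genes (38.9%, interval 17.3 to 64.3). Mir125b-1 lay under 11144 bp (chromosome 9, 41577715 to 41588859) inside Mir100hg, the widest peak at any microRNA gene that did not also meet a brain microRNA. Mir99b, Mirlet7e and Mir125a shared a peak of 4653 bp on chromosome 17. It covered all of Mir99b and 80.6% of the Mirlet7e hairpin, and met Mir125a through the flank. Mirlet7i lay under 2734 bp, 12 bp from its centre, and Mir125b-2 under 473 bp.

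The remaining 11 genes of this list had no peak, with Mir98, Mir99a and Mirlet7a-1 among them. Of 13 genes whose mature RNA carries the let-7 seed GAGGUAG, 2 had one, Mirlet7e and Mirlet7i. These 13 include Mir7k, which by its number was counted in the other neural list and not in this one. Of the 6 genes with the mir-125 seed CCCUGAG, 4 had one: Mir125a, Mir125b-1, Mir125b-2 and Mir351. These seeds are compared after their values were seen.

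Hox-linked microRNAs, which lie within the Hox clusters of homeobox genes, had a peak at 5 of 6 genes (83.3%, interval 35.9 to 99.6). Mir615, in Hoxc5, lay under 6845 bp, Mir196b under 2125 bp and Mir10b under 1286 bp. Mir196a-1 met a peak of 1215 bp through its flank only, as Mir196a-2 did one of 388 bp. Mir10a had none. A median of 27.5 peaks lay within 50 kb of these genes, the highest of the 13 lists.

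Lists of microRNAs known from tissues other than brain ran from no gene with a peak to 2 of 7 epithelial genes (28.6%). None of 11 muscle microRNA genes had one, and Mir133a-1, Mir133a-2 and Mir133b are among them. None of 14 embryonic stem cell microRNA genes had one either, such as Mir290a, Mir290b and Mir291a, nor did Mir96, Mir182 and Mir183 of sensory cells. In the liver, gut and pancreas list Mir375, a microRNA of endocrine cells, was the single gene of 11 with a peak (1971 bp), and Mir122, Mir122b and Mir192 had none. Of 8 blood and immune genes Mir150 alone had one (802 bp), while Mir142, Mir142b and Mir144 had none.

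Of 5 vascular genes Mir145a, of smooth muscle and mural cells, had a peak of 1040 bp, and Mir126a, Mir126b and Mir143 had none. Among 7 epithelial genes Mir203 (2384 bp) and Mir141 (630 bp, 494 bp from the hairpin) had one, and Mir200a, Mir200b and Mir200c had none. In the clusters related to Mir17, known from proliferating cells, Mir92b alone of 16 genes had one, and Mir106a, Mir106b and Mir17 had none. The Mir92b peak (5890 bp) reached an end of Muc1, and the hairpin lay 275 bp from an end of Thbs3. These lists are short, and the upper limits of their exact intervals ran from 23.2% for stem cell genes and 28.5% for muscle genes to 71.6% for vascular genes. All but that of the stem cell genes, which ends just below it, include the share of all microRNA genes. These intervals count each gene as separate, although members of a list can be neighbours, such as Mir144, Mir451a and Mir451b. They are too narrow for such lists, and whether the stem cell list lies below the share of all microRNA genes was not tested.

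Broadly expressed microRNA genes had a peak at 9 of 39 (23.1%), near the share of all microRNA genes. Mir26a-1 met a peak of 4271 bp and Mir22 of 3497 bp, both through the flank, and Mir23a, Mir27a and Mir24-2 shared 1296 bp. Mir101a, Mir101b and Mir101c had none. The 1010 genes in no list had a peak at 226 (22.4%).

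**Figure D4:**
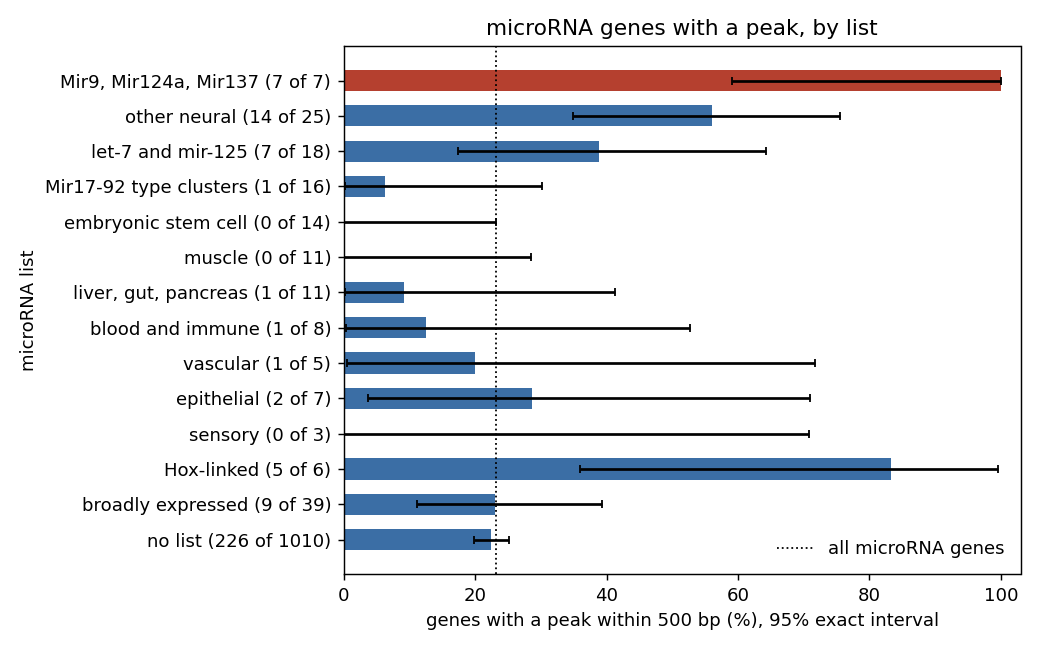
Share of microRNA genes with a peak within 500 bp, in percent, by list, with exact 95% binomial intervals and the number of genes. The dotted line marks all microRNA genes (23.2%). Brain (7 of 7), Hox-linked (5 of 6) and other neural genes (14 of 25) have intervals above the line. Lists go by symbol number, so the other neural row also counts Mir7k, which carries the let-7 seed. Muscle, embryonic stem cell and sensory genes are at 0. Intervals count each gene as separate, although the 14 other neural genes met 10 separate peaks, so they are too narrow where genes share a site.

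The 10 widest peaks also included 4 at microRNAs of no list that sit in or beside other genes. Mir7687 lay under 9723 bp inside Gse1, Mir6991 under 9356 bp inside 2700081O15Rik, and Mir1905 under 8463 bp inside Mex3a. Mir1897 lay under 8335 bp (chromosome 3, 34636193 to 34644528) inside Sox2ot, the non-coding RNA gene around the progenitor factor gene Sox2. In such places a peak of the microRNA and a peak of the gene around it cannot be told apart. The other 6 were those at Mir9-3, Mir124a-1, Mir125b-1, Mir124a-3, the Mir132 and Mir212 pair and Mir219a-1.

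Gene copies that make the same mature microRNA mostly shared the same state, and differed in whether they had a peak for 10 of 50 sequences. Among 50 mature sequences encoded by more than 1 gene, every gene had a peak for 8, some did for 10 and none did for 32. Over all microRNA genes 23.2% had a peak. The 8 were miR-9-5p, miR-9-3p, miR-125b-5p, miR-129-5p, miR-196a-5p, miR-219a-5p, miR-344-3p and miR-344-5p. Both arms of the same genes are counted for miR-9 and miR-344, so the 8 stand for fewer sets of genes. The 32 also hold such pairs of arms, as for miR-3084. Among the 10 with a mixed state, miR-7a-5p had a peak at Mir7-2 and none at Mir7-1 in Hnrnpk, and miR-181a-5p had one at Mir181a-1 (1086 bp) and none at Mir181a-2. Mir7b, which shares the seed GGAAGAC, met a peak of 1047 bp only through its flank. For the 10 sequences with a mixed state, the same RNA was thus encoded by a gene at an open site and by another with no called peak.

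The Mir344 family, chosen after its values were seen, showed a split along its locus on chromosome 7. Its 13 genes spread over 402.2 kb (61683124 to 62085310), at least 263.0 kb from any protein-coding gene end, where 8 peaks were called in all. In reference order the first 7 genes, Mir344d-1 to Mir344b, had no peak within 46.6 kb. The last 6 each had the hairpin wholly inside a peak of its own, with a width of 747 bp at Mir344c, 689 bp at Mir344, 917 bp at Mir344-2, 477 bp at Mir344g, 868 bp at Mir344f and 562 bp at Mir344i. All 6 peak centres lay upstream of the hairpin centre on the gene's strand, by 61.5 to 198.5 bp.

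Members of this family also differ in sequence along the locus. The seed GAUCUAG of miR-344-3p printed above is shared by Mir344, Mir344-2 and Mir344c, all of which had a peak. The copies Mir344d-1, Mir344d-2 and Mir344d-3 make miR-344d-3p with the seed AUAUAAC, and none had one. The seed GUCAGGC of the 5′ arm crosses the split, with a peak at 4 of its 7 genes.

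**Figure D5:**
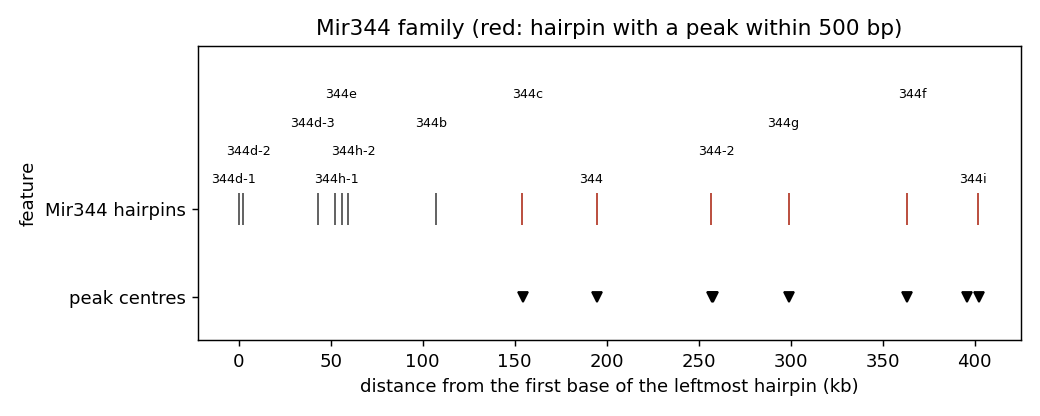
The 13 Mir344 hairpins (upper marks, red where a peak lay within 500 bp) and the centres of peaks (triangles) by distance in kb along the locus from the leftmost hairpin. The 7 hairpins on the left have no peak nearby and each of the 6 on the right has one.

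The long runs of microRNA genes held almost no peaks. The 4 runs of 10 or more genes with gaps of at most 10 kb held no gene with a peak within 500 bp. The run from Mir466m to Mir669h, 71 genes in 51.6 kb within Sfmbt2 on chromosome 2, held no peak. The same was true of the run from Mir743 to Mir465 on chromosome X (19 genes in 62.4 kb), whose nearest peak was 122905 bp away. In an imprinted region of chromosome 12, the run from Mir770 to Mir136 (16 genes in 31.7 kb) held none, and the run from Mir379 to Mir3072 (39 genes in 38.9 kb) held 1 peak, with the closest hairpin to any peak 716 bp away. The Sfmbt2 run holds 71 genes of only 4 microRNA numbers, and whether reads of such repeated sequence entered the peaks was not tested. Outside these runs 274 of 1035 genes had a peak (26.5%).

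On chromosome X 4 of 90 microRNA genes had a peak (4.44%, interval 1.22 to 11.0), against 270 of 1090 on autosomes (24.8%, interval 22.2 to 27.4). The run of 19 genes described above lies on chromosome X, and the runs of 71, 39 and 16 genes lie on autosomes. The part of the runs in these shares was not tested.

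The hairpin lay inside a peak at most of these genes. At 190 of the 274 genes (69.3%) the whole hairpin was inside, at 10 it was partly inside, and at 74 (27.01%) the flank alone met the peak. Of 255 genes with a strand in the sequence table, 149 (58.4%) had the peak centre upstream of the hairpin. Just inside the limit of 500 bp were Mir7b (nearest to it), Mir141 (494 bp) and Mir129-1 (486 bp), and just outside were Mir183 (529 bp), Mir7243 (536 bp) and Mir5615-2 (541 bp).

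Hairpins at peaks were richer in G and C. The 241 hairpins with a peak and a RefSeq sequence had a median GC content of 56.4%, and the 722 without a peak one of 50%. Outside protein-coding genes the medians were 53.3% (67 hairpins) and 45.5% (239 hairpins). A CpG dinucleotide was present in 81.7% of hairpins with a peak and in 62.7% of those without. The part of base composition in the share of genes with a peak was not tested.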

How the data were processed

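Single-nucleus ATAC-seq of E14.5 striatum gave 2 libraries in 1 group, made with 10x Genomics reagents per the labels' protocols. The submitters' processing notes name mm10 as the build, and as tools Signac and, in version 1.2.0, Cell Ranger ATAC, without their roles. The authors deposited 1 list of 87174 peak positions, with no score, count or sample. The peak caller and any pooling of libraries are not given in the sources used here. Depth, number of nuclei and replicate agreement are unknown. Starts are printed as deposited and were counted from 0 in overlaps.

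Genes came from a RefSeq table of GRCm38.p6. Of 49997 entries, 49595 on main chromosomes with unique symbols were used, and 13 host genes were left out of the microRNA set. A further 48 microRNA genes under other symbols, 14 of them with a peak, were outside the rule. An overlap of 1 bp with the gene span plus 500 bp counted. The background over positions was computed exactly from the first to the last feature of each chromosome. Intervals are exact binomial (Clopper-Pearson) and count each gene as separate, also where neighbouring genes share a peak. With no replicate values and no second group, no test was made. The overlap code was tested on simulated data (Python 3.11.15, pandas 2.3.3, SciPy 1.17.1).

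MicroRNAs were put into 13 lists by the number in their symbol, and those of cell types other than neurons stand in for markers of other cells. Named genes are all genes numbered 9, 124 and 137, in each other list up to 4 with the widest peak and up to 3 without a peak, the 10 widest peaks, the 3 genes on each side of the limit and the ends of each run of 10 or more genes. Others were chosen after their values were seen. Members and lists were chosen with earlier results of these data known.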

Additional observations from a re-analysis of the deposited data

How the results depend on the processing

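No paired analysis was possible because there is 1 group and 1 shared peak list. The share of microRNA genes with a peak stayed inside its interval in 5 of 14 alternatives and moved in 9. It was 16.9% with a flank of 0 bp, 28.3% with 1000 bp and 51.6% with 5000 bp. It was 18.7% with peaks wider than the median, 14.1% with the peak midpoint in the flanked span and 16.1% with the whole gene span inside 1 peak. It was 27.8% over clusters, 18.3% over 1000 bp from protein-coding gene ends and 26.5% outside runs of 10 or more genes. For the other microRNA genes the same settings gave 16.5%, 27.9%, 51.3%, 18.2%, 13.8%, 15.6%, 27.3%, 17.7% and 25.97% in this order. The brain share was 100% in 13 of 14 alternatives and 57.1% (4 of 7) by peak midpoint, a setting that leaves out wide peaks centred beyond the flank. Many of the 13 could not lower it, because they widen the flank or drop no brain gene and no brain peak. A flank of 0 bp and the whole gene span inside 1 peak could have lowered it and gave 100%. The brain share was above the share of other genes in all 14. The median width at brain genes ran from 5102 to 6264 bp. At other genes it was 2105 bp with a flank of 0 bp, 971.5 bp with 5000 bp, 1193 bp by midpoint and 898.5 bp away from protein-coding gene ends, below the brain median each time. Counting starts from 1 left these shares as they were. Keeping scaffold genes could not change them, because no microRNA gene lay on a scaffold. The alternative outside runs was chosen after seeing the data.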
